A study of Agaricus bisporus with 8 samples.

Results

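The effect of riboflavin on droughted mycelium was read from the drought channel of 8 2-colour arrays. The organism was Agaricus bisporus, the button mushroom, in its variety bisporus (strain H97). Hyphae grew on hay in closed chambers, and received for 3 weeks either water alone or water with 50 µM riboflavin. Irrigation was then stopped, and droughted mycelium was taken on day 3 or day 7. Each array also carried RNA of mycelium that was still irrigated, in the other dye. All 8 drought channels of the 16 channels in the series were taken, 4 from riboflavin-grown and 4 from water-grown mycelium, with 2 arrays (replicates 1 and 2) for each supplement and day. The drought RNA was labelled with Cy3 in replicate 1 and with Cy5 in replicate 2, so replicate and dye are the same variable. The labels name no mutation or transgene, and every group shares the strain, the hay and the time on irrigation. The sample titles give each array of a group its own replicate number, but the descriptions do not, and nothing says that they came from separate cultures. P-values therefore cover only the variation among these arrays, part or all of which may be technical. The arrays with water lay in slide row 1 and those with riboflavin in slide row 2 of the same slide, and row and supplement cannot be told apart. The RNA came from whole mycelium, so fewer cells of a type and less RNA per cell cannot be told apart either.

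Riboflavin, or vitamin B2, is the precursor of the coenzymes FMN and FAD, which carry electrons in flavoproteins. Among these are subunits of complexes I and II of the mitochondrial respiratory chain, glutathione reductase and many oxidases. Fungi can synthesise riboflavin and can also take it up. In a drying mycelium, the known responses include the accumulation of compatible solutes, the induction of heat shock proteins and defences against reactive oxygen.

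Signals were low on all arrays. Of the 10413 genes with a probe, 9375 were not well above background (the scanner software's own call) in any drought channel, and 112 were in all 8. With water, 270 and 545 probes were well above background on day 3 (replicates 1 and 2) and 294 and 244 on day 7. Riboflavin arrays gave 379 and 471 such probes on day 3, then 347 and 386 on day 7. The riboflavin arrays averaged 395.75 ± 53.0 (SD, n = 4) and the water arrays 338.25 ± 139, an overlapping pair of ranges (exact two-sided permutation test, p = 0.429, smallest possible 0.0286). The mean difference of 57.5 probes was 126 without water day 3 replicate 2, the array with the highest count of all 8. Leaving out any 1 of the other arrays gave differences of 26.1 to 73.75. The larger value thus rests on leaving out the array that was most extreme in these same counts, and is a description and not a test. The net signal of a channel was concentrated in the 3 brightest genes, AGABI2DRAFT_75870, AGABI2DRAFT_75612 and AGABI2DRAFT_187811. With water they held 72.8%, 65.8%, 56.8% and 87.1% of it, and with riboflavin 66.2%, 88.6%, 56.5% and 86.0% (day 3 replicates 1 and 2, then day 7 replicates 1 and 2, the order used throughout). Both supplements spanned nearly the same range, and the mean difference of 3.68 percentage points had an exact two-sided permutation p of 0.743. That difference fell to -1.06 without riboflavin day 3 replicate 2, -0.91 without water day 7 replicate 1 and -0.19 without riboflavin day 7 replicate 2. The permutation tests took no account of replicate (dye) or day. Over both supplements, the 3 genes held 56.5% to 72.8% in replicate 1 and 65.8% to 88.6% in replicate 2. AGABI2DRAFT_75870 alone held 20.4% to 39.2% of the net signal with water and 19.9% to 33.3% with riboflavin.

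The direction of each channel was taken from the dyes in the labels. The log2 ratios of the 2 arrays of a group, drought over irrigated, correlated across genes at 0.33 (day 3) and 0.59 (day 7) with water, but at -0.35 and -0.38 with riboflavin. For this reason values are also given with the channels of both riboflavin replicate 2 arrays exchanged ("turned"), that is, with their Cy3 channel read as drought. The exchange was picked from these same correlations, and it turns the sign of the ratios of those arrays. Calls and adjusted p-values under it are therefore a description and not a test.

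The question of the pooled comparison was which genes of droughted mycelium differed in level between riboflavin and water. No gene passed the test. Genes were tested if both arrays of 1 or more groups had them well above background under drought. Of these 350 genes, limma called 0 (0%) at an adjusted p under 0.05, and the lowest adjusted p was 0.0729. All differences below are riboflavin minus water on the log2 scale of normalized intensity, adjusted for dye and day, with limma standard errors over the 8 drought channels. At an unadjusted p under 0.05, 38 genes (10.9%) were higher with riboflavin and 6 (1.71%) were lower. That split depended on the scaling, since it was 19 higher to 9 lower when each channel was centred on the median of the genes detected in every channel. It depended on the riboflavin replicate 2 arrays too, with 60 higher to 36 lower if turned, 35 to 28 without them and 43 to 33 with the replicate 1 arrays alone. The median difference over all 350 genes was 0.058, and 205 lay above and 145 below 0. All 4 riboflavin values exceeded all 4 water values for 22 genes (6.29%), and all 4 lay below them for 2 genes (0.571%).

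The way genes entered the test bears on this split. Through riboflavin groups alone 138 of the 350 entered, against 40 through water groups alone, so a gene high in 1 supplement was more readily counted. Among the 156 genes well above background on at least 3 of 4 arrays of each supplement, 15 (9.62%) were higher and 4 (2.56%) lower at an unadjusted p under 0.05. All 4 riboflavin values exceeded all 4 water values for 8 of these 156 (5.13%), and all 4 lay below them for 1. Among the 112 detected in all 8 channels, 8 were higher and 3 lower, or 5 and 2 when only these 112 were fitted. The 38 higher genes had differences of 0.21 to 1.87 with a median of 0.50. Of them, 9 were not well above background on any water array, beside 39 of all 350. Of the 22 genes with every riboflavin value above every water value, 6 were among those 39.

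AGABI2DRAFT_205009 had the largest difference. The function of this gene, and of the other genes given by number only, is not annotated in the table used. Its log2 intensity was 7.79, 7.52, 6.62 and 7.41 with water and 8.88, 9.33, 9.41 and 9.18 with riboflavin. The lowest riboflavin array stood more than 1 log2 unit above the highest water array, and the gene was well above background in all 8 drought channels. The means were 9.20 ± 0.23 (SD, n = 4) and 7.33 ± 0.50, a difference of 1.87 ± 0.27 or 3.65-fold (adjusted p 0.0729, limma). It was similar in replicate 1 (1.94) and replicate 2 (1.80), and remained between 1.61 and 2.08 when any 1 array was left out. Limma called it after loess and Aquantile normalization (adjusted p 0.0299), without the dye term (0.047) and with all 10413 genes tested (0.0401). Turned, the difference was 0.65 ± 0.59 (adjusted p 0.534).

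The same separation of the supplements was seen, at smaller size, in genes of lower intensity. AGABI2DRAFT_153780 read 6.53, 6.19, 5.96 and 6.72 with water and 7.33, 7.17, 7.58 and 8.33 with riboflavin. Its difference was 1.25 ± 0.27 (adjusted p 0.145, limma) and 0.44 if turned, and 1 water array was not well above background. AGABI2DRAFT_115419, detected in all 8 channels, read 6.99, 7.03, 7.26 and 7.45 with water against 7.67, 8.06, 7.87 and 8.55 with riboflavin. The ranges did not overlap, and the difference of 0.86 ± 0.12 had an adjusted p of 0.0729 in limma (0.036 after loess and Aquantile, 0.0395 with all genes tested). With median centring the difference was 0.65 ± 0.21, with an adjusted p of 0.446 in limma. Turned, it was 0.49.

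**Figure D1:**
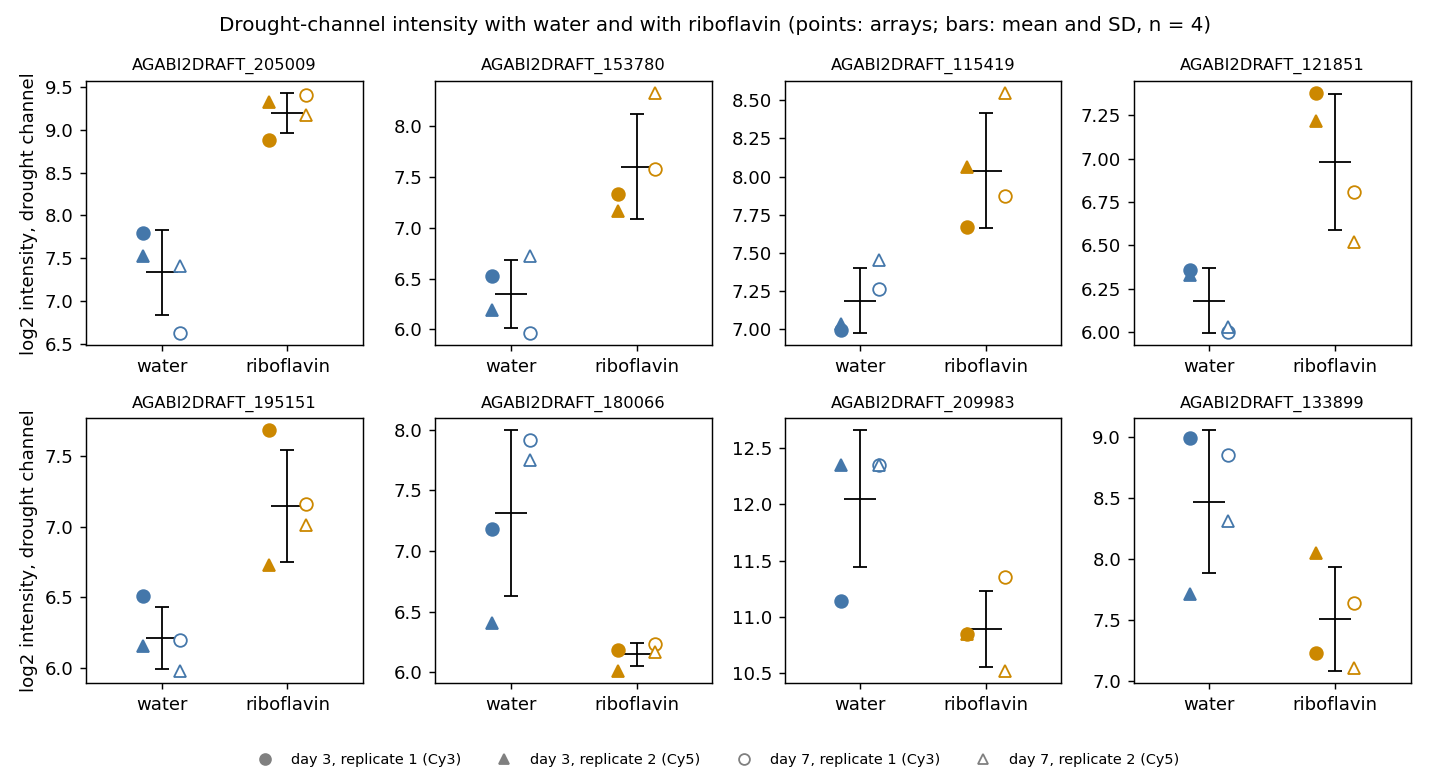
Log2 normalized intensity in the drought channel (vertical axis) for 8 genes by supplement, 1 point per array, with the mean and SD (n = 4) as bars. In the first 5 panels every riboflavin array lies above every water array, and in the sixth (AGABI2DRAFT_180066) every one lies below. In the seventh and eighth panels the ranges overlap.

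AGABI2DRAFT_121851 had the smallest p-value. It read 6.36, 6.33, 6.0 and 6.03 with water and 7.38, 7.22, 6.81 and 6.52 with riboflavin. Both supplements were lower on day 7 than on day 3, and each riboflavin array still exceeded every water array. The difference of 0.80 ± 0.11 (adjusted p 0.0729, limma) is a compressed one, since 2 of the 4 water arrays were not well above background. It was called without the dye term (adjusted p 0.047) and with all genes tested (0.0395). Limma did not call it after loess and Aquantile (adjusted p 0.0994) or with median centring (0.446), where the difference was 0.63 ± 0.19. Turned, it was 0.51. AGABI2DRAFT_195151 read 6.51, 6.16, 6.20 and 5.98 with water and 7.68, 6.73, 7.16 and 7.01 with riboflavin. Its difference was 0.93 ± 0.15 (adjusted p 0.102, limma), again with 2 water arrays not well above background. The call appeared when all genes were tested (adjusted p 0.0493), and the turned difference was 0.53. In limma the adjusted p was 0.16 after loess and Aquantile and 0.446 with median centring (0.75 ± 0.25).

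AGABI2DRAFT_211434 read 7.47, 7.54, 6.61 and 6.67 with water and 8.55, 8.16, 7.54 and 7.09 with riboflavin. Its supplements overlapped when days were pooled, but on each day both riboflavin arrays were above both water arrays. The difference was 0.77 ± 0.13 (adjusted p 0.102 in limma, 0.0493 with all genes tested) and 0.18 if turned. With median centring it was 0.52 ± 0.22 (adjusted p 0.604, limma). AGABI2DRAFT_194933 read 6.15 to 6.54 with water and 6.92 to 7.52 with riboflavin, with a difference of 0.80 ± 0.16 (0.24 if turned). AGABI2DRAFT_193627 read 6.57 to 6.95 with water and 7.18 to 7.65 with riboflavin, with a difference of 0.63 ± 0.15 (0.36 if turned). The adjusted p was 0.132 for AGABI2DRAFT_194933 and 0.159 for AGABI2DRAFT_193627 in limma.

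AGABI2DRAFT_195355 was brighter than these and followed the replicate, which is the same variable as the dye. It read 10.57, 9.11, 11.66 and 9.45 with water and 11.66, 10.09, 12.35 and 10.06 with riboflavin. Replicate 1 was the higher one in every group, so the pooled ranges overlapped, yet in each of the 4 matched pairs of arrays riboflavin was higher. The difference was 0.84 ± 0.19 (adjusted p 0.145, limma), and 1.98 (adjusted p 0.0467) if turned. AGABI2DRAFT_194625 and AGABI2DRAFT_144976 were among the 6 largest positive differences through 1 replicate each. AGABI2DRAFT_194625 differed by 2.52 in replicate 1 and by 0.03 in replicate 2 (1.27 ± 0.59 in all, adjusted p 0.478). AGABI2DRAFT_144976 differed by 0.22 and 1.52 (0.87 ± 0.37 in all, adjusted p 0.398). Turned, AGABI2DRAFT_194625 was called at 3.12 (adjusted p 0.0109) and AGABI2DRAFT_144976 stood at -0.26.

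Of the 2 genes whose riboflavin values all lay below their water values, AGABI2DRAFT_180066 had the wider gap. It read 7.18, 6.41, 7.92 and 7.75 with water and 6.18, 6.01, 6.23 and 6.17 with riboflavin. It was well above background on all 4 water arrays and on no riboflavin array, so it entered the test through water alone. That choice favours a higher value with water. Its own signal was above the lowest detected level of each riboflavin array (5.90 to 6.09). The 2.24-fold ratio, higher with water, is therefore the fitted difference and not a bound. That difference was -1.16 ± 0.24 (adjusted p 0.142, limma), and -1.40 to -0.99 when 1 array was left out. Turned, it was -1.25 and called (adjusted p 0.0254).

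AGABI2DRAFT_209983, a bright gene, read 11.14, 12.35, 12.35 and 12.35 with water and 10.85, 10.85, 11.35 and 10.52 with riboflavin. Equal values arise because quantile normalization gives probes of equal rank the same level. Only water day 3 replicate 1 lay within the riboflavin range. The difference of -1.16 ± 0.34 had an adjusted p of 0.237 in limma and was -1.16 if turned (adjusted p 0.064). AGABI2DRAFT_133899 read 8.99, 7.71, 8.85 and 8.31 with water and 7.23, 8.05, 7.64 and 7.11 with riboflavin, with overlap on the replicate 2 arrays of day 3. Its difference was -0.96 ± 0.35 (adjusted p 0.36, limma) and -0.61 if turned.

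AGABI2DRAFT_213215 differed by -0.78 ± 0.31 (adjusted p 0.382), mainly in replicate 2 (-1.44, against -0.12 in replicate 1). AGABI2DRAFT_193554 and AGABI2DRAFT_186299 had large negative means with wide errors. AGABI2DRAFT_193554 read 9.68, 7.42, 11.37 and 6.72 with water and 6.46, 9.07, 7.13 and 6.57 with riboflavin, a difference of -1.49 ± 1.16 (adjusted p 0.609). It was -3.73 in replicate 1 and 0.75 in replicate 2. AGABI2DRAFT_186299 had a difference of -1.17 ± 0.98 (adjusted p 0.632), with water day 7 replicate 2 at 13.98 and the other water arrays at 9.37 to 11.37. AGABI2DRAFT_191519 rested on 1 array, since water day 3 replicate 2 read 9.81 and the other 7 arrays 6.24 to 6.98. Its difference of -0.77 ± 0.73 became 0.072 without that array. AGABI2DRAFT_181598 was the other gene with no overlap, at 6.36 to 6.44 with water and 6.13 to 6.30 with riboflavin (-0.17 ± 0.08, adjusted p 0.495).

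Some genes were detected under drought with only 1 supplement. Of the 350 tested, 39 were not well above background on any water array and 1 was not on any riboflavin array. In the irrigated channel, 24 of the 39 were well above background on at least 1 water array and 34 on at least 1 riboflavin array. Over all 350 genes these counts were 313 and 333. Of the 39, 6 were detected on all 4 riboflavin arrays, and the 5 with the largest bounds are given here. AGABI2DRAFT_194280 read 5.98 to 6.16 with water and 6.27 to 6.48 with riboflavin, at least 1.24-fold higher (fitted difference 0.34 ± 0.07, adjusted p 0.145, limma). For AGABI2DRAFT_116245 the bound was at least 1.23-fold (fitted difference 0.31 ± 0.09, but 0.81 ± 0.19 and called if turned, adjusted p 0.0467), for AGABI2DRAFT_55012 and AGABI2DRAFT_196511 at least 1.15-fold each, and for AGABI2DRAFT_136353 at least 1.11-fold. These genes lay close to the detection level, which ranged from 5.76 to 6.12 between the 8 drought channels. They entered the test through riboflavin groups alone, a choice that favours higher values with riboflavin. Their adjusted p-values are no support for that direction, and the bounds allow nothing for the standard error.

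Only 88 probes had a gene symbol. Most were components of the respiratory chain, the pathway that passes electrons from NADH and succinate to oxygen. Genes named for flavin synthesis or uptake, superoxide dismutase, trehalose metabolism or aquaporins were not among the symbols and were not analysed here. Of 25 complex I subunits on the array, 6 were well above background in at least 1 drought channel. For complex II the count was 2 of 5, for complex III 0 of 6, for complex IV 0 of 5 and for ATP synthase 0 of 11. Neither the alternative oxidase nor the external NADH dehydrogenases were detected (0 of 3), nor were the laccases and manganese peroxidase, which degrade lignin (0 of 7). Of 5 heat shock genes 1 was detected, and of 7 genes of the histidine kinase phosphorelay, which signals osmotic stress in fungi, 1. Only 3 genes with a symbol could be tested, and none passed.

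SDH1 (AGABI2DRAFT_190526) encodes the flavoprotein subunit of succinate dehydrogenase, which holds FAD, a coenzyme made from riboflavin. It read 6.70, 6.31, 6.65 and 7.34 with water and 7.59, 6.63, 7.44 and 7.08 with riboflavin. The riboflavin array was the higher one in 3 of 4 matched pairs, and the ranges overlapped. The difference was 0.44 ± 0.27 (adjusted p 0.531, limma), 0.84 in replicate 1 and 0.03 in replicate 2. Turned, SDH1 was called with a difference of 1.5 (adjusted p 0.0467).

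CytC2 (AGABI2DRAFT_135048), a cytochrome c that carries electrons between complexes III and IV, read 9.20, 7.89, 10.40 and 9.74 with water. With riboflavin it read 8.98, 7.79, 9.18 and 11.25. The supplements covered overlapping ranges, with a difference of -0.00 ± 0.59 (adjusted p 0.995, limma). It was -0.72 in replicate 1, 0.71 in replicate 2 and, if turned, -0.87 ± 0.28 (adjusted p 0.0853). NdufA1 (AGABI2DRAFT_195692), an accessory subunit of complex I, read 6.43, 5.91, 6.87 and 5.99 with water and 6.78, 6.38, 6.10 and 6.06 with riboflavin. It was well above background on 2 water and 3 riboflavin arrays, and the difference was 0.03 ± 0.22 (adjusted p 0.951).

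**Figure D2:**
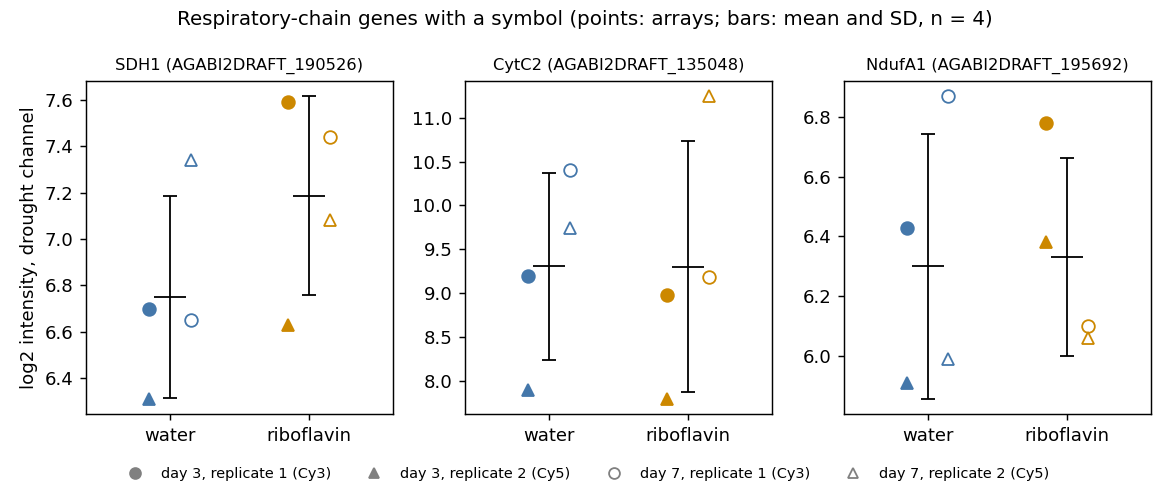
Log2 normalized intensity in the drought channel (vertical axis) for the 3 tested genes with a symbol, by supplement, 1 point per array, with the mean and SD (n = 4) as bars. Riboflavin and water arrays overlap in each panel.

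Each day was also compared on its own. Limma called 0 of 350 genes on day 3 (0%) and 0 on day 7 (0%). At an unadjusted p under 0.05, 24 genes were higher and 1 lower on day 3, and 18 higher and 10 lower on day 7. With median centring the day 3 split was 9 higher to 12 lower, and without water day 3 replicate 1 it was 22 to 21. The day 7 split was 6 higher to 17 lower without water day 7 replicate 1. Turned, the splits were 31 to 12 on day 3 and 30 to 28 on day 7. Without water day 3 replicate 1, 7 genes were called on day 3, all lower with riboflavin, and these calls rest on the remaining water array of that day. AGABI2DRAFT_205009 had the largest positive difference on both days, 1.45 ± 0.32 on day 3 (adjusted p 0.516) and 2.28 ± 0.32 on day 7 (adjusted p 0.152). It was followed by AGABI2DRAFT_194625 on day 3 (1.36) and AGABI2DRAFT_153780 on day 7 (1.62). The largest negative differences on day 3, AGABI2DRAFT_191519 (-1.48) and AGABI2DRAFT_188048 (-1.43), both came from high values on water day 3 replicate 2. On day 7 they were those of AGABI2DRAFT_193554 (-2.20) and AGABI2DRAFT_209983 (-1.42).

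Whether the riboflavin difference itself changed between the days was tested as an interaction, and no gene passed (0%, with 4 at an unadjusted p under 0.05). AGABI2DRAFT_121457 had the smallest p. It read 6.75 and 6.44 with water and 7.07 and 6.95 with riboflavin on day 3, and 7.61 and 7.71 against 6.58 and 6.36 on day 7. Riboflavin was thus the higher supplement on day 3 (0.42) and the lower on day 7 (-1.19), a change of -1.61 ± 0.21 (adjusted p 0.361, limma). In AGABI2DRAFT_180066 the difference went from -0.70 to -1.63, with a change of -0.94 ± 0.31 (adjusted p 0.999). The array number 193052, which matched no locus tag, went from 0.34 to -0.59.

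The riboflavin difference was compared between replicates, and so between dyes. Of the 350 genes, 1 passed this test (0.286%), and 63 had an unadjusted p under 0.05. Across genes the replicate 1 and replicate 2 differences correlated at -0.11 (Spearman 0.01), given as a description of genes that share arrays. In 40 genes both were beyond 0.5 in size. Of these, 16 were higher in both replicates, 3 were lower in both and 21 were opposed. The called gene, AGABI2DRAFT_206868, read 8.43, 7.21, 8.65 and 7.47 with water and 6.02, 7.46, 6.22 and 7.79 with riboflavin. It was lower with riboflavin by 2.42 log2 units in replicate 1 (difference -2.42) and slightly higher in replicate 2 (0.29), a difference between replicates of 2.71 ± 0.15 (adjusted p 0.0061, limma). The call was lost after loess and Aquantile and with an intensity trend. It was also lost without water day 3 replicate 1, without water day 7 replicate 1 and without any 1 of the riboflavin arrays. The filter for all 8 channels left this gene untested, as 2 of the 4 riboflavin arrays were not well above background. With both riboflavin replicate 2 arrays left out, it was the 1 gene called in the pooled comparison (-2.42, adjusted p 0.023). Turned, it was called at -1.71 ± 0.31 (adjusted p 0.0254).

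AGABI2DRAFT_136259 read 11.51, 10.44, 10.48 and 10.57 with water and 12.94, 9.65, 12.94 and 8.70 with riboflavin. Both riboflavin replicate 1 arrays were above all water arrays and both replicate 2 arrays were below them. The differences were 1.94 and -1.33, and their mean of 0.31 ± 0.73 describes neither replicate. Turned, this gene stood at 2.19 (adjusted p 0.0109). AGABI2DRAFT_123004 was opposed the other way, with -1.52 in replicate 1 and 0.48 in replicate 2. With both riboflavin replicate 2 arrays turned, 305 genes passed the filter and 41 of them (13.4%) were called in the pooled comparison, 27 higher and 14 lower. The exchange was picked from the disagreement of the replicates in these data, so that number is not a test of either reading.

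**Figure D3:**
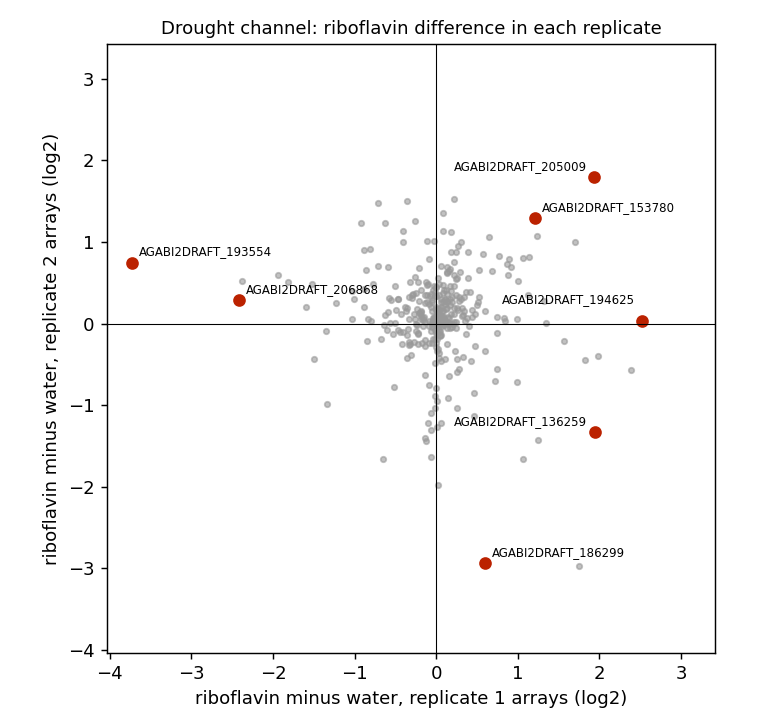
Riboflavin minus water in the drought channel (log2) from the replicate 1 arrays (horizontal axis) and from the replicate 2 arrays (vertical axis), 1 point per tested gene, with 7 genes marked in red. AGABI2DRAFT_205009 and AGABI2DRAFT_153780 lie far out in the upper right, high in both replicates, while AGABI2DRAFT_206868, AGABI2DRAFT_193554 and AGABI2DRAFT_136259 have opposite signs.

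The last comparison asked whether the riboflavin difference was the same in irrigated mycelium, read from the other channel of the same arrays. No gene passed the test of the difference between the channels (0%), and 46 had an unadjusted p under 0.05. Each value here rests on the labelled dyes, and with both riboflavin replicate 2 arrays turned 9 genes were called. In the irrigated channel itself 1 of the 350 genes was called (0.286%). AGABI2DRAFT_195355 read 8.57, 8.65, 8.39 and 9.12 there with water and 11.25, 12.35, 10.64 and 12.35 with riboflavin. All riboflavin arrays were above all water arrays, by 2.97 ± 0.28 (adjusted p 0.027, limma), and no gene was called with replicate 2 turned. The call was also lost after loess and Aquantile, with median centring, without the dye term and with an intensity trend. It was lost without water day 3 replicate 1, either water day 7 array, either riboflavin day 3 array or riboflavin day 7 replicate 2. Under drought the difference of AGABI2DRAFT_195355 was 0.84, and the difference of the 2 effects was -2.12 ± 0.39 (adjusted p 0.261). Turned, the 2 effects were 1.98 under drought and 1.83 under irrigation.

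In AGABI2DRAFT_205009 the drought effect was the larger one as labelled. Its irrigated values were 6.60, 7.06, 6.81 and 6.92 with water and 8.10, 6.70, 6.40 and 6.94 with riboflavin. The supplements overlapped there (0.18 ± 0.38), and its drought effect exceeded the irrigated one by 1.68 ± 0.58 (adjusted p 0.318). That order reversed if turned, with 0.65 under drought and 1.40 under irrigation. AGABI2DRAFT_194933, with 0.80 under drought and 0.09 under irrigation, differed by 0.71 (adjusted p 0.261), and by -0.42 if turned. AGABI2DRAFT_139997 read 8.88, 7.65, 9.57 and 8.42 with water and 8.47, 8.02, 8.29 and 7.63 with riboflavin under drought, a difference of -0.53 ± 0.27. Its irrigated difference was 0.77, so the effects differed by -1.30 ± 0.25 (adjusted p 0.261). Turned, its drought difference was 0.85 and the effects differed by 1.44.

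SDH1 differed by 1.31 under irrigation, against 0.44 under drought, with a difference of the effects of -0.87 ± 0.62 (adjusted p 0.624). Turned, SDH1 differed by 0.24 under irrigation and the difference of the effects was 1.26 (adjusted p 0.101), the opposite order. The 38 genes higher under drought at an unadjusted p under 0.05 had a median irrigated difference of 0.11, beside a median of -0.011 over all 350 genes. In the irrigated channel, all 4 riboflavin values exceeded all 4 water values for 14 genes (4%) and lay below them for 21 (6%). None of the 14 was among the 22 genes with that separation under drought, a number too small to set apart from the background share.

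**Figure D4:**
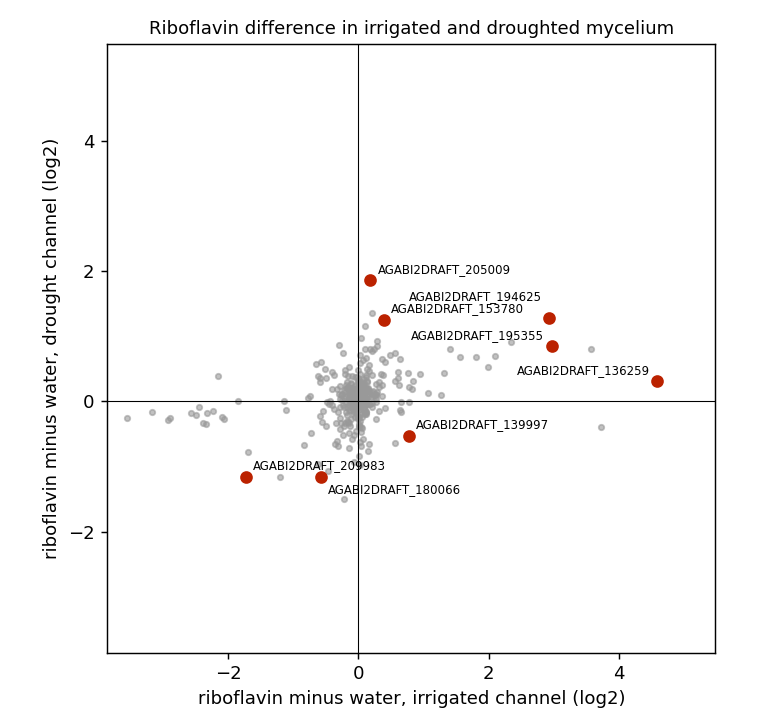
Riboflavin minus water (log2) in the irrigated channel (horizontal axis) and the drought channel (vertical axis), 1 point per tested gene, with 8 genes marked in red. AGABI2DRAFT_205009 lies near 0 on the irrigated axis (0.18) and highest on the drought axis (1.87), whereas AGABI2DRAFT_195355 and AGABI2DRAFT_136259 lie far to the right on the irrigated axis (2.97 and 4.58). With riboflavin replicate 2 turned, AGABI2DRAFT_205009 would lie at 1.40 and 0.65.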

How the data were processed

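The tables deposited for each array came, per the file headers, from Agilent Feature Extraction 11.5.1.1 and give median spot and background intensity in each of the 2 channels, as raw values; processed intensity was used as an alternative. The submitters' processing notes name limma. A deposited table of channel ratios was not used, because a ratio does not give a single channel. Median intensities were corrected with normexp (offset 50). Control spots (536) were then left out, spots marked as outliers (0 to 4 per channel) set to missing, all 16 channels quantile-normalized and spots averaged per probe (15208 spots, 10413 probes, no saturated spot). Quantile normalization fixes the levels of the brightest genes, so these are given as shares of net signal. The offset compresses differences of dim genes.

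Probes entered the test if, under drought, both arrays of 1 or more groups had them well above background, which left 350 (348 with a locus tag of the assembly Agabi_varbisH97_2, 1 with a missing value, AGABI2DRAFT_193445). Array numbers matched a locus tag for 10348 probes. Limma 3.58.1 under R 4.3.3 fitted supplement, dye and day to the 8 drought channels (residual degrees of freedom 4, prior 1.55), with Benjamini-Hochberg adjustment over all tested probes. The day comparison used 1 term per supplement and day, the replicate comparison an interaction with dye, and the comparison with irrigated mycelium the within-array difference of channels. The fit was run on simulated data with known changes and independent noise, without dye, day or slide effects. That checks the code, and not the power to find differences of the size seen here. The number of arrays limits the precision.

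The labels give replicate 2 as a dye swap. Replicate deviations of the groups correlated at -0.26 to 0.68, not above 0.1 in every pair, so the replicate number is in the fit as dye and not as a pairing.

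The comparison, the genes named and the lists were chosen with earlier results of these data known. Named genes are those called, the 6 largest differences each way among genes well above background on at least 3 of 4 arrays of each supplement, the 5 smallest p-values, tested genes with a symbol, the 3 brightest, those detected on all 4 arrays of 1 supplement and none of the other (at most 6), the 2 largest each way per day, up to 4 widest gaps between supplements each way, and the 3 smallest p-values of each interaction. Groups of genes with a symbol were drawn up after the files were seen. The label mycelium was not checked against markers, as the symbols hold none. Alternatives changed the normalization, background correction, filter, model terms and arrays used. For the irrigated channel, the array measures and most interaction alternatives, they were chosen after seeing the data.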

Additional observations from a re-analysis of the deposited data

Results flagged for a closer look

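Among 78 sets of 4 arrays examined (the 2 supplements for 37 named genes and 2 array measures), Dixon's test marked 1 array in 4 sets, where chance gives about 1 in 20. All 4 marks fell on water day 3 arrays. Replicate 1 stood low for AGABI2DRAFT_209983 (11.14, the other water arrays tied at 12.35 by quantile normalization, a tie that fixes the mark) and high for AGABI2DRAFT_136259 (11.51, the others at 10.44 to 10.57). Replicate 2 stood high for AGABI2DRAFT_188048 (10.23, the others at 6.23 to 6.60) and for the number of probes well above background (545, the others at 244 to 294). In AGABI2DRAFT_206868 the riboflavin difference was not the same in both replicates by limma's interaction test, with a difference between them of 2.71 log2 units (adjusted p 0.0061). That call was lost when any 1 riboflavin array was left out.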

How the results depend on the processing

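Pooled calls numbered 0, but 2 after loess and Aquantile (AGABI2DRAFT_115419, AGABI2DRAFT_205009), 7 with no filter (10413 genes), 2 with no replicate block, that is, no dye term (AGABI2DRAFT_121851, AGABI2DRAFT_205009), 41 turned (of 305 genes) and 1 without both riboflavin replicate 2 arrays. Leaving out 1 array at a time gave 0 pooled calls each time, 0 to 7 on day 3 (7 without water replicate 1), 0 to 3 for the change between days, 0 to 14 between replicates (14 without water day 7 replicate 2), 0 to 10 in the irrigated channel (10 without water day 3 replicate 2) and 0 for drought against irrigated. On day 7 median centring gave 1 call (AGABI2DRAFT_205009) and no filter 2. For the change between days no filter gave 1. Between replicates (1 call), loess and Aquantile, an intensity trend and the filter for all 8 channels gave 0, median centring 23, no filter 15 and turning 2. In the irrigated channel (1 call), an offset of 16, the processed signals, the filter for all 8 channels, no filter and no day term gave 2 each, and loess and Aquantile, median centring, no replicate block, an intensity trend, turning and leaving out both riboflavin replicate 2 arrays 0. For drought against irrigated, turning gave 9. The difference in detected probes was 26.1 to 126 and that in the 3 genes' share -1.06 to 9.64 points (also -0.91 and -0.19) when 1 array was left out.

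Over the 37 named genes, 14 of 908 values (12 genes) changed sign, and 18 passed the threshold. A change of sign was counted if the new or the main value was larger than its standard error. The sign changes were AGABI2DRAFT_75612 at 0.73 after loess and Aquantile, AGABI2DRAFT_186299 at 0.59 with replicate 1 alone and also without both riboflavin replicate 2 arrays, and, with replicate 2 alone, AGABI2DRAFT_193554 at 0.75, AGABI2DRAFT_135048 at 0.71, AGABI2DRAFT_206868 at 0.29, AGABI2DRAFT_123004 at 0.48 and AGABI2DRAFT_136259 at -1.33. Turned, AGABI2DRAFT_144976 stood at -0.26, AGABI2DRAFT_187811 at -1.68 and AGABI2DRAFT_139997 at 0.85. With 1 array left out at a time, AGABI2DRAFT_135048 ranged from -0.63 to 0.54 (without riboflavin day 7 replicate 1), AGABI2DRAFT_191519 from -1.29 to 0.072 and AGABI2DRAFT_188048 from -1.11 to 0.17 (both highest without water day 3 replicate 2). The cause was not tested. The median difference of all tested genes ranged from -0.009 (median centring) to 0.149 (processed signals). An alternative on mean spot signals was not run, as the tables used hold medians. Low signal over background left most genes untested.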
